A study of Mus musculus with 8 samples.

Results

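The genes described here encode the nuclear part of respiratory complex I. They are 42 genes out of the 18395 in the count table, taken as the entries whose gene ID carries one of 42 chosen symbols. Of these, 6 encode core subunits that carry the redox chemistry (Ndufs1, Ndufs3, Ndufs7, Ndufs8, Ndufv1 and Ndufv2), 29 encode accessory subunits and 7 encode assembly factors of the Ndufaf series. They were measured by RNA sequencing of mouse adipose tissue in 4 control libraries (WT) and in 4 libraries from animals lacking Kindlin-2, an integrin-binding adhesion protein encoded by Fermt2, in brown adipocytes (KO). Both groups had spent 6 hours at 4 °C, so the cold is shared and no library came from warm animals. The labels name the tissue only as adipose, while the title of the series speaks of brown fat. The labels do not give the driver of the deletion, the strain, the sex or the age, though the deposited table carries UCP1 in its name.

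Complex I takes electrons from NADH, passes them along a chain of iron-sulfur clusters in its matrix arm to ubiquinone, and uses the energy to pump protons through its membrane arm. The core subunits are shared with bacteria and are split between the nuclear and the mitochondrial genome, the accessory subunits surround them, and assembly factors help build the complex but leave it when it is complete. Brown adipocytes are packed with mitochondria, where the proton gradient made by the respiratory chain is spent as heat through uncoupling protein 1.

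WT libraries held 33672272 to 43253559 counts each, and KO libraries 35734373 to 40927141. Fermt2 itself lay between 201 and 244 CPM (counts scaled to library size) in WT and between 132 and 192 in KO, without overlap (log2 fold change -0.45 ± 0.14 SE, edgeR adjusted p = 0.134). Ucp1 alone took 0.444% to 0.605% of all counts in WT and 0.196% to 0.45% in KO, and no gene of the 10-gene brown adipocyte list was at 0 in all libraries. A pair of libraries stood apart: skeletal muscle genes took 3.86% of the counts in WT replicate 3 against at most 0.0279% elsewhere, and interferon response genes took 0.275% in KO replicate 2 against at most 0.0275% elsewhere. Results are therefore also given for the 6 libraries without these. The 10 brown adipocyte genes together took 0.775% to 1.06% of counts in WT and 0.598% to 0.941% in KO, and the 8 endothelial genes 0.107% to 0.16% and 0.166% to 0.315%. Their part in the results below was not tested. In whole tissue, fewer cells of a type and less RNA per cell cannot be told apart. Whether the libraries of a group came from separate animals is not in the labels, so each p-value rests on the spread among these libraries, which may be technical.

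Promoters of 3 members are shown to give the sequence context of genes that differ in how far they lay below WT. With TMM scaling (trimmed mean of M values), Ndufs7 is the core gene with the smallest difference and Ndufs5 is an accessory gene with a large one. Ndufa10 is the accessory gene that passed the most tests. Each run is 300 bases, from 250 before to 50 after the annotated start, on the coding strand, from RefSeq on GRCm38.p6. Ndufs7 is at chr10:80249199-80249498 (plus strand), Ndufs5 at chr4:123718137-123718436 (minus strand) and Ndufa10 at chr1:92473709-92474008 (minus strand). Capitals mark a YY1 motif in Ndufs7 and, on the opposite strand, a motif of the estrogen-related receptors (ERR) in Ndufs5.
Ndufs7: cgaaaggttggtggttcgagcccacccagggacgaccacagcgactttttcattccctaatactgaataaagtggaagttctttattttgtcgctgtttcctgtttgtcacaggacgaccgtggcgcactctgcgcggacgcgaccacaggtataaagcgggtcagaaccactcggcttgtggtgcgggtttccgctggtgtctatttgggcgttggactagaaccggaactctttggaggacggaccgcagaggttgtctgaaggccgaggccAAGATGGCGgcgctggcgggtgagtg
Ndufs5: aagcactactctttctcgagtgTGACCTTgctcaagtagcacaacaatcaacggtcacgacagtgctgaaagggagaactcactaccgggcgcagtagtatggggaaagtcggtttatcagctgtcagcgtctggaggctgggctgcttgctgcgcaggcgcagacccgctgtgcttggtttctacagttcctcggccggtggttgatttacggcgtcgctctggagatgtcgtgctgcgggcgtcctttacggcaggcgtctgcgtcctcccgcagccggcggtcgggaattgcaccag
Ndufa10: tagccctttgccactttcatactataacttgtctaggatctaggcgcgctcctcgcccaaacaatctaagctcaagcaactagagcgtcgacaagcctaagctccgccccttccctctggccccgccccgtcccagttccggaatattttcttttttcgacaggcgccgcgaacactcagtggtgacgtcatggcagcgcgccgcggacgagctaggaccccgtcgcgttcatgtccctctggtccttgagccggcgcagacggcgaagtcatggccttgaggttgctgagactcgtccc
The Ndufa10 window held none of the 4 motifs searched.

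The motifs were those of factors known from work on mammalian cells to act on genes of the respiratory chain, and a promoter was available for 38 members. Each was searched on both strands: GCATGCGC for NRF1, AAGGTCA for ERR, CCGGAAG for ETS factors such as GABP, and AAGATGGCG for YY1. The NRF1 motif stood in 5 of the 38 members (13.2%), against 2.71% of all 32851 promoters of the same length. These 5 were Ndufa6, Ndufa8, Ndufa11, Ndufaf4 and Ndufaf5. The YY1 motif stood in 5 (13.2%, against 1.4% of all promoters), which were Ndufa9, Ndufc1, Ndufs4, Ndufs6 and Ndufs7. The ETS motif stood in 5 (13.2% against 8.86%) and the ERR motif in 3 (7.9% against 4.72%), Ndufb2, Ndufb4 and Ndufs5. No member held more than 1 of the 4 motifs, and 18 of the 38 members (47.4%) held 1, where at least 1 stood in 16.4% of all promoters. A member was counted once if any of its promoters matched, while all promoters were counted singly. The shares of members and of all promoters are therefore unlike measures. The median log2 fold change (TMM) was -0.10 for the genes with the NRF1 motif, -0.13 with the YY1 motif and -0.31 with the ETS motif. It was -0.43 for the 3 with the ERR motif, of which Ndufb2 lay above 0. Members without a given motif had medians between -0.13 and -0.15. A match of letters is a description and not a shown binding site.

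KO was compared with WT to see how this set of genes stood after loss of Kindlin-2. With TMM scaling (trimmed mean of M values), though not with total library size alone, the nuclear complex I genes lay modestly lower in KO, unevenly by role: core subunits and assembly factors all lay lower, and accessory subunits lay on both sides of 0 with most below. The difference between the roles was not tested. With TMM, 33 of the 42 members (78.6%) had a log2 fold change below 0, where 49.5% of all genes did, and the median was -0.15 against 0.00 over all 13901 genes tested. The 6 core genes were all below 0 with a median of -0.31, the 7 assembly factors were all below 0 with a median of -0.44, and 20 of the 29 accessory genes were below 0 with a median of -0.09. The sign depends on scaling: with total library size alone the median of all genes was 0.26, 16 of the 42 members were below 0, and the medians were 0.11 for all members, -0.06 for the core, 0.16 for the accessory genes and -0.18 for the assembly factors. The distance from the median of all genes was nearly the same, -0.15 with TMM and -0.16 with total size.

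No member passed the adjusted p threshold of 0.05 in edgeR's quasi-likelihood test on 8 libraries, where 0% of genes were called (0 of 13901, smallest adjusted p 0.0800, 2993 genes with an unadjusted p under 0.05). At an unadjusted p under 0.05 in the same test, 11 of the 42 members lay lower and 0 higher. Of all 13901 genes, 1543 (11.1%) lay lower and 1450 higher by that measure. DESeq2 called 4 members lower (Ndufs1, Ndufa10, Ndufaf1 and Ndufs5) where it called 4.71% of genes lower. Limma-voom with sample quality weights called 2 lower (Ndufs1 and Ndufa10) against 3.76% of genes, and edgeR on the 6 libraries called 1 lower (Ndufa10) against 1.5%. None of these tests called a member higher. Among the 13901 genes, DESeq2 called 511 higher, limma-voom with quality weights 428 and edgeR on the 6 libraries 253. At most 4 of the 42 members were called in any of these tests.

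**Figure D1:**
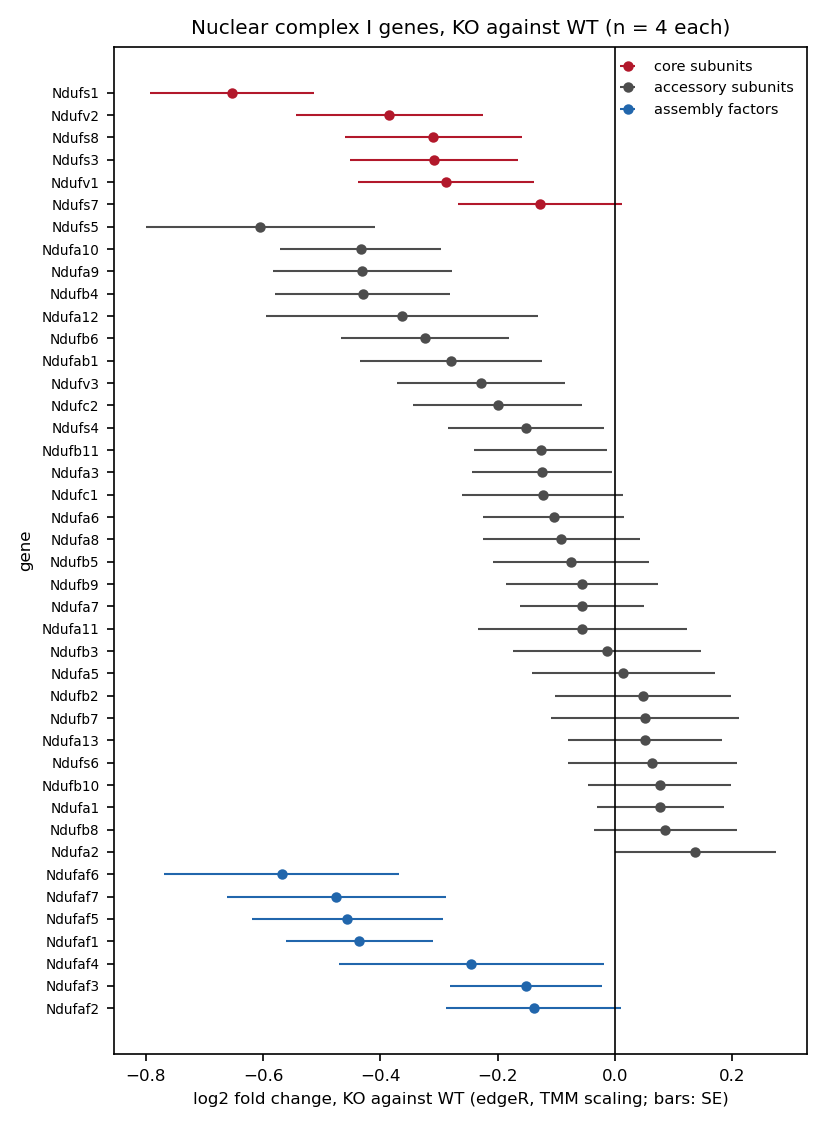
Log2 fold change of each of the 42 genes, KO against WT (x axis, TMM scaling, bars are SE from edgeR, n = 4 libraries per group), ordered within core subunits, accessory subunits and assembly factors. All core and assembly points lie left of 0 and the accessory points run from -0.61 for Ndufs5 to 0.14 for Ndufa2; with total library size alone, 16 of the 42 lie left of 0.

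Separation of the libraries was read with both scalings. With TMM, in 7 members (16.7%) every KO library lay below every WT library, as in 7.56% of all genes: Ndufs1, Ndufs3, Ndufv2, Ndufa9, Ndufb4, Ndufaf1 and Ndufaf7. These were 3 of the 6 core genes, 2 of the 29 accessory genes and 2 of the 7 assembly factors. In 0 members did every KO library lie above every WT library, against 5.8% of all genes. Scaled by total library size alone, only Ndufs1 kept every KO library below every WT library, as 1.14% of all genes did, and the other 6 overlapped. Every KO library then lay above every WT library in 4 accessory genes (Ndufa1, Ndufa7, Ndufb8 and Ndufb10), against 19.8% of all genes.

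Ndufs1 (ENSMUSG00000025968), the largest core subunit and carrier of several iron-sulfur clusters in the NADH-oxidising module, showed the largest difference. WT replicates 1 to 4 stood at 379, 409.6, 385 and 434 CPM, and KO replicates 1 to 4 at 197, 270.0, 299 and 256 CPM. The groups did not overlap, and the highest KO library stood well below the lowest WT library. The WT mean was 402 ± 25.0 CPM and the KO mean 256 ± 42.7 CPM (SD, n = 4), which is 36.4% lower. On the log2 scale the difference was -0.65 ± 0.14 (SE), and its adjusted p was 0.0981 in edgeR, 0.00194 in DESeq2 and 0.0250 in limma-voom with quality weights. On the 6 libraries it was -0.70 (edgeR adjusted p = 0.0510). Ndufs1 stayed below 0 with total library size alone, at -0.40.

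Ndufv2, which holds an iron-sulfur cluster beside the NADH site, came next among the core genes by log2 fold change. It stood at 568, 652, 614 and 611 CPM in WT and at 332, 477, 526.5 and 537 CPM in KO. All KO libraries lay below WT replicate 1, the lowest of WT, and KO replicate 1 was farthest below. KO differed from WT by a log2 fold change of -0.38 ± 0.16 (edgeR adjusted p = 0.209), or -0.25 without KO replicate 1.

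Ndufs3, a subunit of the ubiquinone-reducing module, stood at 466, 559.6, 464 and 487 CPM in WT and at 305, 429, 433 and 428 CPM in KO. Again KO replicate 1 was apart, while the other KO libraries were nearly equal and all below WT. The log2 fold change was -0.31 ± 0.14 (edgeR adjusted p = 0.241) and -0.20 without KO replicate 1. Of the 50-base stretches of its transcripts, 39.7% also occur in other annotated genes, among them Kbtbd4 and Gm12251, so its reads may be shared.

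Ndufs8, which carries a pair of iron-sulfur clusters close to the ubiquinone site, stood at 300.0, 390.0, 264 and 294 CPM in WT and at 206, 265.5, 261 and 275 CPM in KO. The groups overlapped through WT replicate 3, the library with muscle transcripts. Over 8 libraries the log2 fold change was -0.31 ± 0.15 (edgeR adjusted p = 0.260), and over 6 it was -0.41 (adjusted p = 0.175). Without WT replicate 2, its highest library, the value was -0.18.

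Ndufv1, the subunit that binds NADH and a flavin, stood at 897, 1037, 715 and 1041 CPM in WT and at 651, 807, 806.5 and 758 CPM in KO. WT replicate 3 again fell among the KO libraries, and the other WT libraries were above all of KO. Here the log2 fold change was -0.29 ± 0.15 (edgeR adjusted p = 0.282) and -0.43 with 6 libraries (adjusted p = 0.116).

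Ndufs7, whose cluster is the last before ubiquinone and whose promoter is printed above, differed least with TMM. It stood at 479, 569, 525 and 491 CPM in WT and at 414, 402, 509 and 563 CPM in KO. KO replicates 1 and 2 were below all of WT and the other KO libraries lay inside the WT range. This gave a log2 fold change of -0.13 ± 0.14 (edgeR adjusted p = 0.608). It was -0.06 without KO replicate 2 and -0.22 without KO replicate 4. With total library size alone it was 0.13, and Ndufv1, Ndufs3 and Ndufs8 then differed less (-0.04, -0.06 and -0.06).

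**Figure D2:**
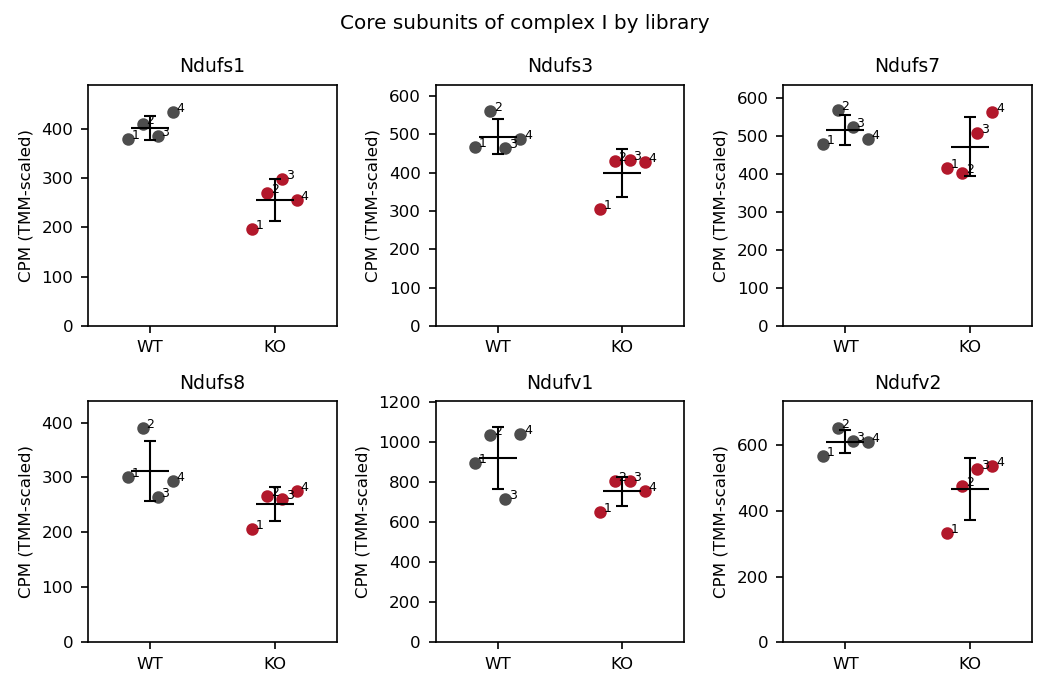
Level of the 6 core genes in each library (y axis, CPM with TMM scaling, from 0), with replicate numbers beside the points, the group mean as a horizontal line and SD bars (n = 4). Ndufs1, Ndufs3 and Ndufv2 show no overlap between WT and KO, and KO replicate 1 is the lowest library in 5 of the 6 genes.

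Among the accessory subunits with the smallest p, Ndufa10 (ENSMUSG00000026260), which is related to nucleoside kinases and sits on the membrane arm, stood at 841, 856, 655 and 816 CPM in WT and at 499, 671, 594 and 582 CPM in KO. Of the KO libraries, 3 were below every WT library and replicate 2 lay just above WT replicate 3. Its log2 fold change of -0.43 ± 0.14 had an adjusted p of 0.147 in edgeR, 0.0415 in DESeq2 and 0.0301 in limma-voom with quality weights. On the 6 libraries, which leave out exactly the overlapping pair, it was -0.58 (edgeR adjusted p = 0.0449).

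Ndufs5, a small subunit on the intermembrane side, stood at 149.6, 269, 243 and 247 CPM in WT and at 119, 142, 166 and 171 CPM in KO. WT replicate 1 was low and fell among the KO libraries, while the other WT libraries were clearly above. Its log2 fold change of -0.61 ± 0.20 had an adjusted p of 0.152 in edgeR and 0.0468 in DESeq2, and was -0.76 without WT replicate 1. A share of 21.7% of its 50-base stretches also occurs in BC002163, so the reads of both may be mixed.

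Ndufb4, a membrane-arm subunit, stood at 204, 247, 238 and 212 CPM in WT and at 125, 171, 194 and 179.9 CPM in KO. The groups did not overlap, with the highest KO library close under the lowest WT library. The log2 fold change was -0.43 ± 0.15 (edgeR adjusted p = 0.165), and 37.0% of its 50-base stretches are shared with related entries such as Ndufb4c.

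Ndufa9, which lies at the joint of both arms near the ubiquinone site, stood at 381, 456, 355 and 407 CPM in WT and at 225, 339.6, 328 and 294 CPM in KO. Every KO library was below every WT library. The log2 fold change was -0.43 ± 0.15 (edgeR adjusted p = 0.169) and -0.56 with 6 libraries (adjusted p = 0.0854).

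At the other end, 9 accessory genes had log2 fold changes above 0, none larger than 0.14 and none past a test. Ndufa2, a small subunit of the NADH-oxidising module, stood at 258, 287, 259 and 223 CPM in WT and at 269.9, 233, 296.5 and 330.4 CPM in KO. The groups overlapped and KO replicates 3 and 4 were the highest of all (log2 fold change 0.14 ± 0.14, edgeR adjusted p = 0.573). Ndufa1, a short membrane-anchored subunit, stood at 310.3, 325.5, 279.7 and 301 CPM in WT and at 284, 341, 324 and 335 CPM in KO. Its groups overlapped too (0.08 ± 0.11, edgeR adjusted p = 0.695). Ndufb8, a membrane-arm subunit, stood at 51.5, 51.6, 46.9 and 51.7 CPM in WT and at 45.5, 47.9, 59.1 and 61.7 CPM in KO. KO replicates 1 and 2 were low and KO replicates 3 and 4 high (0.09 ± 0.12, edgeR adjusted p = 0.700). Ndufb8 overlaps the annotated gene Gm20538, so part of its reads may have gone uncounted or been counted there.

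The other accessory genes filled the space between. Ndufa12 (-0.36), Ndufb6 (-0.32), Ndufab1 (-0.28, the acyl carrier protein, which occurs once in each arm), Ndufv3 (-0.23) and Ndufc2 (-0.20) had the lower log2 fold changes. Without KO replicate 1 these were -0.21 for Ndufa12, -0.16 for Ndufab1, -0.14 for Ndufv3 and -0.10 for Ndufc2. Ndufa12 was also nearer 0 without WT replicate 2, at -0.22, and Ndufc2 was farther from 0 without KO replicate 3, at -0.30. Ndufs4, Ndufb11, Ndufa3, Ndufc1 and Ndufa6 lay between -0.15 and -0.10, and Ndufa8, Ndufb5, Ndufb9, Ndufa7, Ndufa11 and Ndufb3 between -0.09 and -0.01. Ndufa5, Ndufb2, Ndufb7, Ndufa13, Ndufs6 and Ndufb10 lay between 0.01 and 0.08. Grouped by place in the complex, 12 of the 15 matrix-arm subunits were below 0 with a median of -0.23, and 13 of the 19 membrane-arm subunits with a median of -0.07. With total library size alone these medians were 0.02 and 0.18, so the order of the arms stayed and the sign did not. The difference between the arms was not tested.

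The assembly factors were all below 0, and their levels per length are given further on. Ndufaf1, which works in assembly of the membrane arm, stood at 37.5, 39.5, 44.4 and 42.3 CPM in WT and at 25.4, 30.7, 36.0 and 28.9 CPM in KO. The groups did not overlap. Its log2 fold change of -0.44 ± 0.13 had an adjusted p of 0.130 in edgeR and 0.0452 in DESeq2. Ndufaf6, needed for an early step of assembly, stood at 11.1, 12.8, 16.8 and 15.4 CPM in WT and at 6.8, 9.1, 10.9 and 11.2 CPM in KO. KO replicate 4 just passed WT replicate 1 and the other KO libraries were below all of WT. For Ndufaf6 the log2 fold change was -0.57 ± 0.20 (edgeR adjusted p = 0.168). Ndufaf7, a methyltransferase known in human cells to modify a core subunit, had a log2 fold change of -0.48 ± 0.19 without overlap between groups (edgeR adjusted p = 0.196). Ndufaf5, known in human cells to hydroxylate the Ndufs7 protein, stood at -0.46 ± 0.16 (adjusted p = 0.170), and Ndufaf4, Ndufaf3 and Ndufaf2 at -0.24, -0.15 and -0.14. Without KO replicate 1 Ndufaf7 stood at -0.31. Ndufaf4 rested on single libraries, with -0.12 without KO replicate 1, -0.10 without replicate 2, -0.44 without replicate 3, -0.37 without replicate 4 and -0.01 with quality weights. With 1 library left out, Ndufaf3 ranged from -0.24 to -0.07 and Ndufaf2 from -0.25 to -0.08. With total library size alone, 4 of the 7 remained below 0.

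Per kilobase of the principal transcript, WT levels spread widely. The highest were Ndufa1 at 726, Ndufs7 at 680 and Ndufa6 at 602 CPM per kilobase, and Ndufs1 stood at 151. The assembly factors, below every subunit but Ndufb2, reached at most 32.0 for Ndufaf5. Ndufb2 stood lowest at 3.30 CPM per kilobase. Its principal transcript in the annotation used is 4371 bases long and it overlaps Braf, so this level may not count all of its mRNA.

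The difference was unequal between KO libraries. KO replicate 1 was the lowest of the 8 libraries for 28 of the 42 members and KO replicate 2 for 10. KO replicate 1 lay below every WT library in 33 members, replicate 2 in 31, replicate 3 in 12 and replicate 4 in 9. KO replicate 4 lay above every WT library in 13 members and replicate 3 in 5. Averaged over the members on the log2 scale, relative to the mean of the 8 libraries, WT replicates 1 to 4 stood at 0.02, 0.23, 0.05 and 0.11 and KO replicates 1 to 4 at -0.36, -0.17, 0.04 and 0.08. KO replicates 3 and 4 were therefore inside the WT range for the set as a whole. For the core genes alone the KO libraries stood at -0.49, -0.14, -0.03 and -0.05, all below the lowest WT value of 0.06 with TMM. With total library size alone the core stood at -0.03, 0.26, -0.13 and 0.08 in WT and at -0.28, -0.01, 0.03 and 0.07 in KO, and the groups overlapped. For the accessory genes KO replicates 3 and 4 stood at 0.06 and 0.12, inside the WT range. With total library size alone the members stood at -0.11, 0.16, -0.15 and -0.01 in WT and at -0.15, -0.04, 0.11 and 0.20 in KO.

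**Figure D3:**
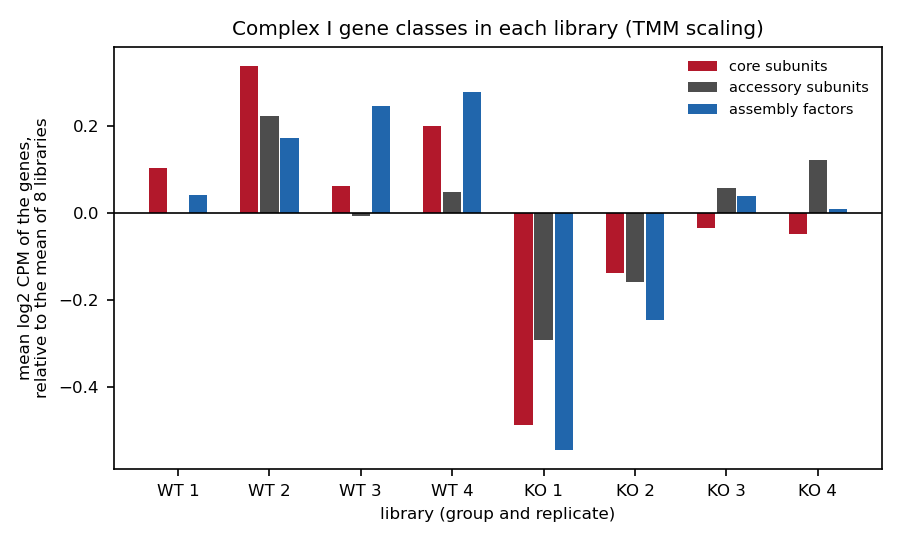
Mean log2 CPM of the core, accessory and assembly genes in each library (x axis), relative to the mean over the 8 libraries (y axis, log2, TMM scaling); bars are means over the genes of a class. The core bars of all 4 KO libraries are below 0, while the accessory bars of KO replicates 3 and 4 are at 0.06 and 0.12.

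The median over members was -0.08 without KO replicate 1 and -0.22 without KO replicate 4, and lay between these when any other library was left out. The brown adipocyte genes took 0.76% of counts in KO replicate 1, 0.598% in replicate 2, 0.928% in replicate 3 and 0.941% in replicate 4. KO replicates 1 and 2 thus had lower complex I levels and lower marker shares than KO replicates 3 and 4. Replicate 2 had the lowest share and replicate 1 the lowest level. For WT replicate 3, the library with muscle transcripts, the match depended on scaling. It had a share of 0.775%, near that of KO replicate 1. Its member level with TMM was 0.05, against -0.36 in KO replicate 1. With total library size alone, on which the shares also rest, these levels were -0.149 and -0.154. On that scaling KO replicate 2, with the lowest share, stood at -0.04. The part of the marker shares in the result was not tested.

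Unequal change inside the set can be seen without any scaling, by dividing each gene's count by the geometric mean count of all 42 in the same library. In 4 members (Ndufs1, Ndufaf6, Ndufb4 and Ndufv2) this ratio was lower in every KO library than in every WT library. On the same ratio, 1.7% of all genes were lower in every KO library. The ratio is centred on the members themselves, which is not so for other genes. Shares of members and of all genes are therefore unlike measures here. In 6 of the 42 members the ratio was higher in every KO library, a share close to the 12.6% of all genes. Neither count sets the members apart from other genes. Those 6 were accessory genes, as 29 of the 42 members are: Ndufa2, Ndufa1, Ndufb8, Ndufb10, Ndufa7 and Ndufb5. The log2 ratio differed by -0.46 for Ndufs1, from 1.06 ± 0.08 in WT to 0.60 ± 0.15 in KO (SD, n = 4), and by 0.34 for Ndufa2, from 0.41 ± 0.14 to 0.75 ± 0.17. The class medians of the difference were -0.11 for the core, 0.10 for the accessory genes and -0.24 for the assembly factors. The ratio shows unequal change within the set and not which genes stayed level.

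**Figure D4:**
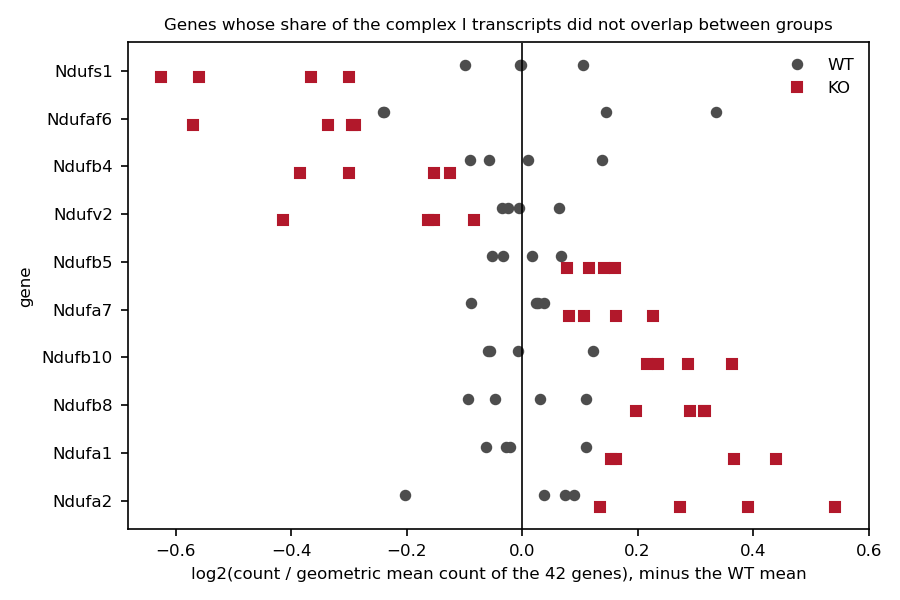
Log2 of a gene's count over the geometric mean count of the 42 genes in the same library, minus the WT mean (x axis), for the 10 genes whose groups did not overlap (y axis); points are libraries. Ndufs1 is farthest to the left in KO and Ndufa2 farthest to the right. The 6 genes with KO to the right are accessory subunits, as are 29 of the 42 genes.

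Longer transcripts tended to lie lower. Across the 42 members, the Spearman correlation between log2 fold change and the length of the principal transcript was -0.523, and across the 35 subunits -0.5. Across 42 nuclear genes of complexes II to V it was -0.732, while across 13868 genes it was 0.063 and across the 1182 most expressed 0.031. Of the 20 members of at least 1000 bases, 18 lay below 0 with TMM, with a median of -0.30; of the 22 shorter ones, 15 did, with a median of -0.07. All genes in these length classes had medians of 0.01 and -0.03. The core genes and assembly factors are mostly longer than the accessory genes, so role and length cannot be told apart here. These correlations are across genes that share libraries, and genes are not independent replicates.

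**Figure D5:**
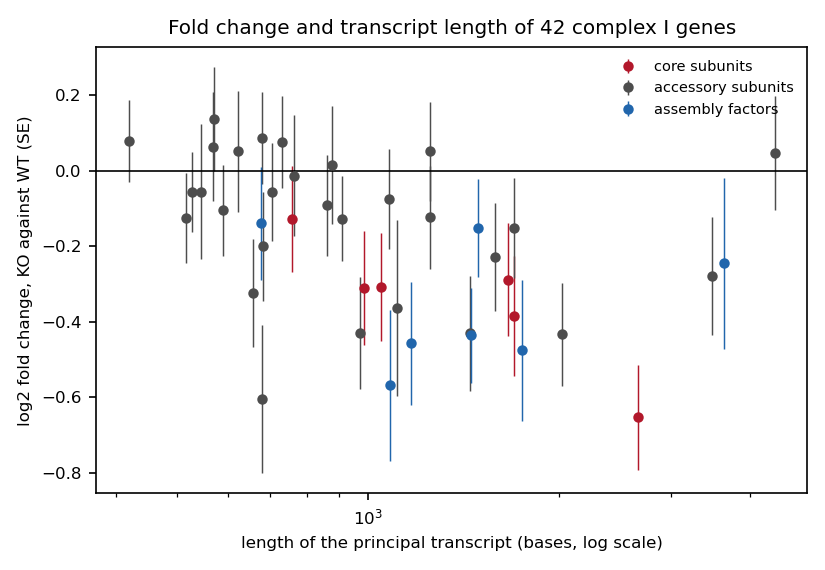
Log2 fold change of the 42 genes (y axis, KO against WT, TMM scaling, bars are SE) against the length of the principal transcript (x axis, bases, log scale), by role. Ndufs1 is the lowest point and most genes under 1000 bases lie near 0; with total library size alone every point moves up and 16 of the 42 stay below 0.

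Genes that work with the members were read in the same test. Of 14 further nuclear complex I genes, mostly assembly factors outside the Ndufaf series, 13 were below 0 with TMM, with a median of -0.27. With total library size, 7 were below 0, with a median of -0.02. In 6 of the 14 (42.9%) every KO library lay below every WT library with TMM, as in 7.56% of all genes. Separation in this and the following lists was read with TMM only. Acad9, an assembly factor of the acyl-CoA dehydrogenase family, had the smallest p. It stood at 29.7, 26.6, 25.1 and 29.5 CPM in WT and at 16.2, 18.9, 20.7 and 17.6 CPM in KO, with every KO library lower. The log2 fold change was -0.60 ± 0.12 (edgeR adjusted p = 0.0915) and -0.66 on the 6 libraries (adjusted p = 0.0400).

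The mRNAs of the 7 complex I subunits encoded in mitochondria all lay lower with TMM, with a median of -0.94. In 5 (71.4%) every KO library lay below every WT library, against 7.56% of all genes. With total library size alone all 7 were still below 0, with a median of -0.68. The smallest p was that of mt-Nd5 (-1.08 ± 0.18, edgeR adjusted p = 0.0874, and 0.0406 on the 6 libraries). The mitochondrially encoded genes together took 19.9% to 25.6% of the counts in WT and 15.1% to 18.2% in KO. The share taken by the 42 nuclear members was 0.977% to 1.25% in WT and 1.02% to 1.27% in KO, so the groups overlapped on this unscaled measure.

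Of 42 nuclear genes of complexes II to V, 37 were below 0 with TMM, with a median of -0.23. In 11 (26.2%) every KO library lay below every WT library, against 7.56% of all genes. The medians were -0.37 for complex II, -0.31 for complex III, -0.16 for complex IV and -0.25 for complex V. The genes with the smallest p were Sdhc (-0.45), Uqcrc2 (-0.79, edgeR adjusted p = 0.0981), Cox7b (-0.35) and Atp5b (-0.48). With total library size alone, 20 of the 42 were below 0 with a median of 0.02. The complex I members were not set apart from these by a test.

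Among 9 factors known to act on respiratory chain promoters, 6 lay below 0 with TMM and 4 with total library size. Esrrg, an estrogen-related receptor, had the smallest p (-1.15 ± 0.34, edgeR adjusted p = 0.133). Its coactivators differed in sign, with Ppargc1a at -0.78 and Ppargc1b at 0.81 (adjusted p = 0.187 and 0.155 in edgeR). Tfam, Esrra and Gabpa stood at -0.40, -0.25 and -0.20, Yy1 at -0.02, and Nrf1 and Gabpb1 at 0.14 and 0.28, none past the threshold in edgeR with TMM. DESeq2 called Esrrg lower (adjusted p = 0.0147) and Ppargc1b higher (adjusted p = 0.0361), and edgeR with total library size called Gabpb1 higher (adjusted p = 0.0499).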

How the data were processed

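The deposited table gives 1 whole-number count per gene and library. Per the labels' protocols, polyadenylated RNA was captured and dUTP was used in the second strand; GRCm39 is the build named in the submitters' processing notes. The sources used here do not give the aligner, counting program, strand setting or annotation, so reads of overlapping or near-identical genes may be split or lost. Symbols came from GENCODE M21 (18321 of 18395 IDs matched), as did principal transcript lengths and shared 50-base stretches. Promoters are RefSeq on GRCm38.p6, a different build, and the files hold no coordinates.

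Genes were kept by filterByExpr (13901; all 42 members passed). The test of KO against WT was that of edgeR 4.0.16 (robust quasi-likelihood F test, TMM, group as the only term) in R 4.3.3, with Benjamini-Hochberg adjustment over all genes tested and a threshold of 0.05. TMM factors were 0.879 to 0.948 in WT and 1.05 to 1.15 in KO. CPM uses TMM-scaled totals. Member counts ran from 294 to 41445 per library, so counting error alone was 5.83% at the lowest and 0.491% at the highest. Alternatives were DESeq2 1.42.0 (size factors, and its test with default filtering), limma 3.58.1 voom with sample quality weights, total library size, removal of mitochondrially encoded genes, no filter, a replicate block, each library left out, and 6 libraries without WT replicate 3 and KO replicate 2. Tests were checked on simulated counts with known fold changes, the same dispersion for every gene and no built-in difference in composition between groups. That check does not bear on the choice of scaling. Figures used matplotlib 3.10.9.

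The members, lists and libraries set aside were chosen with earlier results of these data known. Values per library are given for every core member, members called, and accessory and assembly members with the smallest unadjusted p (4 lower and 3 higher, and 2 lower; no assembly factor lay higher). In each other list the gene with the smallest p is named. The promoters by rule were those of the members with the largest difference in each direction and of the core member with the smallest; of these Ndufs7 is printed, and Ndufs5 and Ndufa10 were chosen after their values were seen. Acad9 values per library, the other members' log2 fold changes, and the promoter factors beyond Esrrg were likewise added. The values of 1 gene are not reported here.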

Additional observations from a re-analysis of the deposited data

Results flagged for a closer look

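In 5 of the 84 groups of 4 libraries (42 genes in WT and in KO), 1 library was far from the other 3 by Dixon's ratio, the gap to the nearest library over the range of the group. Chance marks about 1 in 20 such groups. In KO replicate 1, Ndufs3 was 304.8 CPM where the next library was 428.3, Ndufs4, an accessory subunit of the matrix arm, was 219.8 CPM where the next was 300.5, and Ndufaf7 was 15.12 CPM where the next was 26.14. In WT replicate 3, Ndufb8 was 46.88 CPM where the next was 51.47, and in WT replicate 2, Ndufb11, a membrane-arm subunit, was 549.9 CPM where the next was 465.8. The 3 in KO replicate 1 are the lowest of all 8 libraries for their gene.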

How the results depend on the processing

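Scaling by total library size moved the signs most. Members below 0 went from 33 to 16, and the medians became 0.11 for all members, -0.06 for the core, 0.16 for accessory genes and -0.18 for assembly factors. The log2 fold changes that changed sign were then Ndufs7 0.13, Ndufa3 0.13, Ndufa6 0.15, Ndufa7 0.20, Ndufa8 0.16, Ndufa11 0.20, Ndufb3 0.24, Ndufb5 0.18, Ndufb9 0.20, Ndufb11 0.13, Ndufc1 0.13, Ndufc2 0.05, Ndufs4 0.10, Ndufv3 0.02, Ndufaf2 0.11 and Ndufaf3 0.10, and Ndufaf4 stood at 0.00. With quality weights Ndufa11 (0.12) and Ndufb3 (0.10) changed sign, and on the 6 libraries Ndufa11 (0.06). Quality weights also moved the median from -0.15 to -0.08 over all members and from -0.09 to -0.01 over accessory genes, with 30 members below 0. Genes called went from 0 to 882 with total size, 1 without the filter, 1113 with DESeq2, 951 with quality weights, 461 on the 6 libraries, and 0 to 361 with a library left out (361 without KO replicate 2). Members called were 4, 2 and 1 with DESeq2, quality weights and the 6 libraries. With a library left out, signs changed for Ndufa5 (-0.08 to 0.12), Ndufa11 (-0.21 to 0.05), Ndufa13 (-0.02 to 0.13), Ndufb2 (-0.01 to 0.18), Ndufb3 (-0.11 to 0.10), Ndufb7 (-0.06 to 0.16), Ndufb9 (-0.11 to 0.04) and Ndufs6 (-0.03 to 0.15). The medians then ranged from -0.22 (without KO replicate 4) to -0.08 (without KO replicate 1) for all members, -0.38 to -0.23 for the core, -0.17 to -0.05 for accessory genes (-0.05 without KO replicate 1, -0.06 without WT or KO replicate 2, -0.17 without KO replicate 4) and -0.48 to -0.31 for assembly factors, with 30 to 37 members below 0. DESeq2 factors and removal of mitochondrially encoded genes changed no call of a member. The causes were not tested.

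With the replicate block, 0 genes were called, 33 members were below 0 and the median was -0.15. Deviations of same-numbered libraries from their group means had correlations of -0.051, 0.0439, -0.13 and 0.224 for replicates 1 to 4. Libraries with different numbers were not compared. These values cannot show whether the numbers pair the samples, and the labels do not say.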
